A study of Saccharomyces cerevisiae with 4 samples.

Results

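The levels of all measured genes and the splicing of all measured introns are described here for wild-type budding yeast (Saccharomyces cerevisiae), which is 1 of the 4 samples of the series. Each of the 4 strains had 1 library: snf2∆, ume6∆, the strain lacking both genes, and wild type (WT), whose values alone are used. The WT strain is a haploid of the BY4741/2 background labelled his-, ura- and leu-, grown in rich glucose medium (YPD) to mid-log phase. RNA was taken by hot phenol and DNase, depleted of ribosomal RNA, and prepared with TruSeq V2, a kit that leaves the strand of a read unknown. The WT column held levels for 6659 named genes, in RPKM (reads scaled to the length of the gene and to the size of the library). It also held splicing efficiencies, on a scale of 0 to 1, for 298 introns or isoforms in 281 genes.

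With 1 library no level has a replicate check and no test across samples was made. Reads per gene were recovered from the RPKM values for all but 24 of the 5986 genes that matched the R64 annotation, so that intervals on a level are exact Poisson 95% intervals. Only counting error is covered, and PCR copies of a molecule are counted as if they were separate. The values were scaled to 27.7 M reads, the median matched gene had 1441.5 reads, and 93.1% of those genes had at least 100. A gene of 1 kb with 3 reads has 0.108 RPKM. Both of the following limit the order of genes: an RPKM rests on the length of the gene from start to end, introns included, and genes with near-identical sequence share reads.

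Budding yeast in glucose ferments it to ethanol through glycolysis, while the genes for other carbon sources are repressed. Fast growth calls for many ribosomes, and the genes for ribosomal proteins, translation factors and glycolytic enzymes are known to be among the most transcribed of the genome. A whole-genome duplication left many of these enzymes and most ribosomal proteins with a pair of genes, called paralogues. Few yeast genes have introns, and a large share of the intron-bearing transcripts code for ribosomal proteins.

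The labels were first set beside the genes that mark them. LEU2, an enzyme of leucine synthesis (chromosome III, 91324 to 92418), had 0 reads, where 3 reads would be 0.0988 RPKM and the exact interval reaches 0.122 RPKM. URA3, an enzyme of uracil synthesis (chromosome V, 116167 to 116970), had 2 reads. HIS3, an enzyme of histidine synthesis (chromosome XV, 721946 to 722608), had 186 RPKM from 3425 reads, although the strain is labelled his-. The labels do not name the alleles, and an allele that lacks only part of the gene would still give reads. MET17, which is deleted in BY4741, had 0.946 RPKM, and LYS2, which is deleted in BY4742, had 137 RPKM. Genes of a cells were present: STE2, the receptor for alpha-factor, had 416 RPKM, the a-factor genes MFA2 and MFA1 had 220 and 144 RPKM, and the lowest of the 9 listed, ASG7, had 12.8. Of the genes of alpha cells, STE3, the receptor for a-factor, had 3.60 RPKM, MF(ALPHA)1 had 2.46 and MATALPHA1 had 0.820, while SAG1, the alpha-agglutinin, had 25.1, AFB1 had 13.8 and MF(ALPHA)2 had 10.4. The medians of the lists were 66.7 RPKM for a-cell genes and 10.4 RPKM for alpha-cell genes, with 9 genes each. MATALPHA2 and HMLALPHA2 had 71.7 and 69.6 RPKM, and 0% of the 50-base windows of either gene are unique in the genome.

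The library was dominated by few genes. The highest 10 genes held 15.7% of the summed RPKM, the highest 100 held 36.5%, and 248 genes held 50% of it. These shares include names outside the annotation, such as YAL037C-B at rank 10, which may share reads with a neighbour of the opposite orientation. They also include near-identical genes such as TEF2 and TEF1. The middle of the distribution was narrow by contrast: the median gene had 39.5 RPKM, the quartiles were 20.4 and 84.3 RPKM, and 4446 genes (66.8%) lay between 10 and 100 RPKM. At or above 500 RPKM, the level called high here, stood 287 genes, which is 4.31% of the 6659. They comprised 92 ribosomal protein genes, 98 other coding genes of the lists described next, 47 coding genes in no list, 21 noncoding RNA genes, and 29 names that are not in the annotation.

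SCR1, the RNA of the signal recognition particle (chromosome V, 441987 to 442508), had the highest level, at 47704 RPKM (interval 47592 to 47817), and alone held 5.47% of the summed RPKM and 2.6% of the reads. Next came 2 genes for elongation factor 1A, which brings aminoacyl-tRNA to the ribosome. TEF2 (chromosome II, 477671 to 479047) had 14696 RPKM and TEF1 (chromosome XVI, 700594 to 701970) had 14469. CCW12, a mannoprotein of the cell wall (chromosome XII, 369697 to 370098), had 14095 RPKM (interval 14026 to 14165), and TDH3, glyceraldehyde-3-phosphate dehydrogenase (chromosome VII, 882812 to 883810), had 12263 (interval 12222 to 12304). FBA1, the aldolase of glycolysis, had 8354 RPKM, CDC19, pyruvate kinase, had 6203, and ENO2, enolase, had 5024. The intervals of these 7 coding genes do not overlap, but TEF2 and TEF1 share most of their sequence. The rest of the 20 highest annotated genes were SNR190, SNR17A, PMA1, GPM1, PDC1, ADH1, EFT2, SNR30, SNR37, EFT1, RPS31 and YEF3, between 7836 and 3232 RPKM.

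Genes of protein synthesis included some of the highest levels. The 11 genes for elongation factors had a median of 1051 RPKM, 8 of them were high, and together they held 4.84% of the summed RPKM and 7.37% of the reads. EFT2 and EFT1, which encode elongation factor 2, had 3449 and 3376 RPKM, and YEF3, the fungal elongation factor 3, had 3232. ANB1, a form of initiation factor 5A made without oxygen, had 72.6 RPKM and HEF3, a second gene for elongation factor 3, had 7.64. Initiation factor genes lay lower, at a median of 282 RPKM over 26 genes, of which 4 were high. TIF1 and TIF2, the RNA helicase of initiation factor 4A, had 1674 and 1596 RPKM, while GCD2 had 104 and GCN3 had 59.1, both subunits of initiation factor 2B. The 21 cytosolic aminoacyl-tRNA synthetase genes had a median of 341 RPKM, led by KRS1 for lysine (671) and ILS1 for isoleucine (561). GRS2, a second gene for the glycine enzyme, was the lowest at 26.6 RPKM, against 398 for GRS1.

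Ribosomal proteins had a median of 656 RPKM over 137 genes, and 92 of them (67.2%) were high. They held 12.6% of the summed RPKM and 8.10% of the reads, where elongation factors held 7.37% and glycolysis and fermentation 7.29%. The 8.10% leaves out ribosomal protein genes whose reads were not recovered, among them RPL32, RPS26A and RPS8A. No gene of the elongation factor and glycolysis lists is left out in this way. No ribosomal protein gene was under 44.1 RPKM. RPS31, made as a fusion with ubiquitin, was highest at 3302 RPKM, and RPL10 had 2754 and RPS20 2591. RPL22B at 44.6 and RPS9A at 44.1 were the lowest. The subunits did not stand apart, with medians of 664 RPKM for the small and 649 RPKM for the large subunit. The deposited length of a gene includes its introns: of 271 coding genes with an annotated intron, 269 gave whole reads when introns were counted in the length and 29 when exons alone were. If all reads of the ribosomal protein genes fell in exons, the median would be 1142 RPKM and 117 of 137 genes would be high. Genes without an annotated intron or recovered reads kept their RPKM in this count. Factors that build the ribosome lay well below its proteins, at a median of 136 RPKM over 66 genes, of which 3 were high. NSR1, nucleolin, had 601 RPKM, NOP1, the methylase of the C/D particles, had 566 and NOP56, a core protein of the same particles, had 510.

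Glycolysis and ethanol fermentation spanned 4 orders of magnitude in 27 genes, with 15 high and a median of 1153 RPKM. Over the 23 genes with at least 80% unique windows, the median was 412 RPKM. The main genes of the lower part of the pathway were among its highest. GPM1, phosphoglycerate mutase, had 4375 RPKM and PDC1, pyruvate decarboxylase, had 4020. ADH1, the alcohol dehydrogenase that makes ethanol, had 3479, and PGK1, phosphoglycerate kinase, had 2709. The aldolase FBA1, of the upper part, was higher than these at 8354 RPKM. The first steps lay lower, with 1153 RPKM for hexokinase HXK2, 587 for PFK2 and 412 for PFK1, the subunits of phosphofructokinase. PDC6, a minor decarboxylase, had 1.22 RPKM. Among the 17 hexose transporter genes, HXT3 was the only high gene at 1675 RPKM. HXT4, HXT6, HXT7, HXT1 and HXT2 lay between 185 and 314 RPKM, and the other 11 were at or below 18.2 RPKM. HXT6 and HXT7 share nearly their whole sequence. Most genes that glucose is known to repress were low. The 16 genes of gluconeogenesis and the glyoxylate cycle had a median of 9.79 RPKM, with PCK1, the first enzyme of gluconeogenesis, at 5.25 and FBP1, fructose-1,6-bisphosphatase, at 11.2. In this list 4 genes stood above the median of all genes, ALD4 at 95.3 RPKM, DLD1 at 88.5, MDH2 at 60.2 and ICL1 at 41.1. Of the galactose genes, GAL1 had 13.8 RPKM and GAL7 had 3.83, while the regulator GAL80 had 61.7. The 36 nuclear genes of the respiratory chain and ATP synthase stood above the median gene in 33 cases. ATP2 and ATP1, the catalytic core of ATP synthase, had 973 and 571 RPKM, and CYC1 and CYC7, the cytochrome c genes, had 37.8 and 17.6.

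At the cell surface the levels ran from the highest to the near absent. The 38 cell wall genes held 3.59% of the summed RPKM and 13 were high; after CCW12 came CWP2 with 2981 RPKM, SED1 with 2349 and HSP150 with 2046, all wall proteins. FLO11, a flocculin, had 3.18 RPKM, and DAN1, a wall protein made without oxygen, had 0.885. PMA1, the proton pump of the plasma membrane, had 4681 RPKM, while the permeases ALP1 and PUT4 had 1.53 and 1.23. GSC2 and FKS1, the catalytic subunits of glucan synthase, had 712 and 545 RPKM. The 14 subunits of the vacuolar proton pump had a median of 413 RPKM, from VMA3 at 1590 to STV1, the Golgi form of its large membrane subunit, at 70.7.

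Most genes of amino acid synthesis lay above the median gene but below 500 RPKM. The 78 genes of amino acid synthesis had a median of 213 RPKM, with ILV5 and ILV3 of the branched-chain pathway at 1513 and 1010 RPKM; 7 genes were high and 71 stood above the median of all genes. GCN4, the activator of amino acid synthesis genes whose protein is controlled by translation, had 1193 RPKM. Fatty acid synthesis was led by OLE1, the desaturase, at 1586 RPKM. In protein folding, SSA1, SSB2, SSB1 and SSA2, the main cytosolic Hsp70 chaperones, lay between 1870 and 1975 RPKM, while the stress forms SSA4 and SSA3 had 38.7 and 31.6. Of the 31 general stress genes, HOR7 had 2212 RPKM, HSP12 had 822 and SIP18 had 3.91.

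Lists of genes for protein complexes differed in how even their members were. The 32 proteasome genes lay within 80.5 and 227 RPKM, a span in which the quartiles differed 1.41-fold. The 47 spliceosome proteins were low and even, at a median of 31.3 RPKM with quartiles 1.51-fold apart; SUB2 at 463 RPKM and PRP43 at 157, helicases with further roles, stood above the rest. The 26 genes of the chromatin remodelers Swi/Snf and RSC had a median of 54.3 RPKM, from RSC8 at 117 to SNF12 at 16.0. Histone genes had a median of 401 RPKM; HHT2 for histone H3 was highest at 1131, and CSE4, the centromeric form of H3, was lowest at 29.2.

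**Figure D1:**
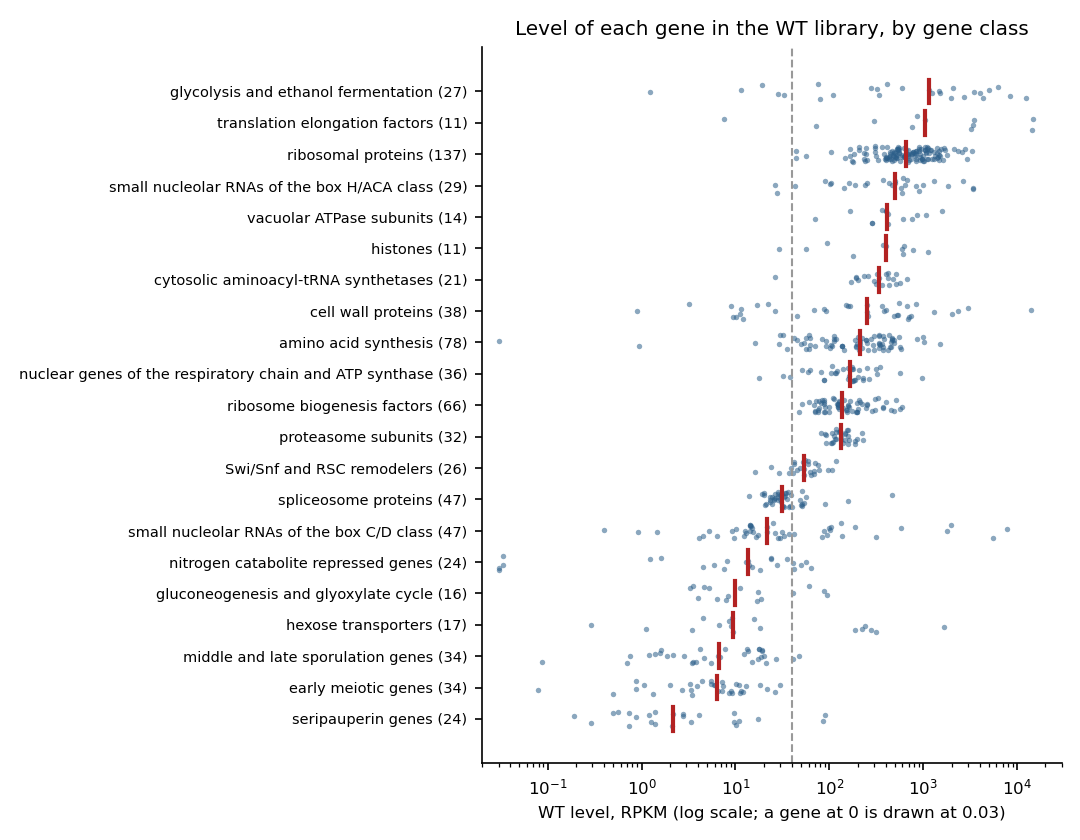
Level of each gene in the WT library on a log axis in RPKM, for 21 gene classes with their number of genes in brackets. Each point is a gene, the red bar is the class median and the dashed line is the median of all genes (39.5 RPKM). The class medians run from 1153 RPKM for glycolysis and fermentation (412 RPKM over its 23 genes of unique sequence) to 2.14 RPKM for the seripauperin genes (10.1 over 3 such genes), and hexose transporters and cell wall proteins spread over more than 3 powers of 10.

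Stable noncoding RNAs were measured unevenly. The small nucleolar RNAs of the box H/ACA class, which guide pseudouridine formation, had a median of 494 RPKM over 29 genes, and 13 were high. Those of the box C/D class, which guide ribose methylation, had a median of 21.9 RPKM over 47 genes, and 5 were high, led by SNR190 at 7836 RPKM and SNR17A, the U3 RNA, at 5567. SNR30 and SNR37 led the H/ACA class at 3423 and 3411 RPKM, and SNR80 was its lowest at 26.2. Length differed along with class, with medians of 204 bases for H/ACA and 98.0 bases for C/D RNAs. None of the 37 RNAs under 120 bases was high (median 14.8 RPKM), against 6 of 19 of 120 to 199 bases (median 241) and 12 of 20 of 200 bases or more (median 643). All RNAs under 120 bases are of the C/D class, since the shortest H/ACA RNA has 161 bases. Over all 76 RNAs the Spearman correlation of length with RPKM was 0.80. It was 0.521 within the C/D class, 0.570 within the H/ACA class and 0.106 among the 37 RNAs under 120 bases. The part of length in the difference between classes was not tested. SNR53 had 1 read and SNR59, which lies inside RPL7B, had 2. RPR1, the RNA of RNase P, had 1367 RPKM and NME1, that of RNase MRP, had 827. Spliceosomal RNAs were not analysed here.

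**Figure D2:**
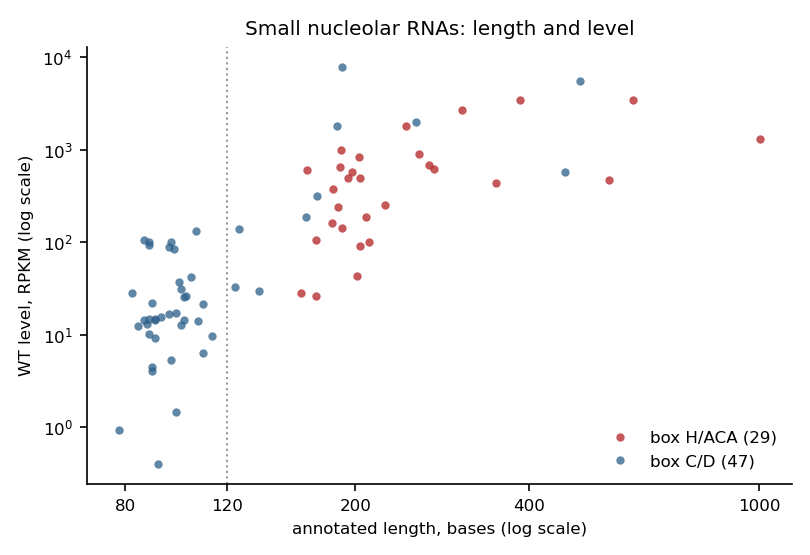
Level in RPKM against annotated length in bases, both on log axes, for 29 box H/ACA and 47 box C/D small nucleolar RNAs of the WT library. Each point is an RNA and the dotted line marks 120 bases; all points left of it are at or below 133 RPKM.

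Some high genes belong to no class of the lists, and were named after their values were seen. HAC1, the transcription factor of the unfolded protein response, had 2561 RPKM although its message is known to be held back from translation in unstressed cells. TMA19, a protein that associates with ribosomes, had 1832 RPKM and STM1, another ribosome-associated protein, had 1375. YDR524C-B (chromosome IV, 1489598 to 1489798) had 3179 RPKM and has only a systematic name. A further 29 high names are not in the annotation and have no coordinates here. In 25 of these 29 (86.2%), an annotated gene of the opposite orientation with the same or the next number in the systematic series was itself high, against 23 of the 644 (3.57%) lower names outside the annotation. YAL037C-B had 5429 RPKM beside CDC19 at 6203, YKL153W had 3500 beside GPM1 at 4375, and YAL004W had 1992 beside SSA1 at 1975. Since the kit does not mark strand, the level of such a name and that of its neighbour cannot be told apart where they overlap.

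Coding genes of high level shared sequence features. Yeast has an abundant tRNA for the arginine codon AGA and for the leucine codon TTG, and these codons are known to be preferred in highly expressed genes. The median share of AGA among arginine codons was 86.3% in the 97 coding genes of at least 1000 RPKM and 75% in the 140 genes of 500 to 1000 RPKM. It was 45.0% in the 4033 genes of 10 to 100 RPKM and 42.9% in the 113 genes under 1 RPKM. Genes with fewer than 5 arginine codons were left out, so these medians rest on 78, 122, 3806 and 73 of the genes. The share of TTG among leucine codons, over genes with at least 5 of them, was 78.4%, 58.3%, 25.9% and 25% in the same 4 levels. Across coding genes, the Spearman correlation with RPKM was 0.343 for AGA (5404 genes) and 0.374 for TTG (5778 genes), and the change lay mostly above 100 RPKM. Ribosomal proteins made up 37 of the 97 highest genes. An A stood 3 bases before the start codon in 87.6% of the genes of at least 1000 RPKM, 57.8% of those of 10 to 100 RPKM and 41.6% of those under 1 RPKM, against 60.3% of all coding genes.

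The 12 bases before the start codon and the codon itself, in capitals, are shown for the 5 highest coding genes because they carry that A at the third base before the codon (R64, strand as given).
TEF2 (chrII:477659-477673, plus): aattaactaaacATG
TEF1 (chrXVI:700582-700596, plus): tttaattacaaaATG
CCW12 (chrXII:370096-370110, minus): actatatcaataATG
TDH3 (chrVII:883808-883822, minus): taaacaaacaaaATG
FBA1 (chrXI:327485-327499, minus): tacatattcaaaATG
The 5 stretches are rich in A and hold no G.

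**Figure D3:**
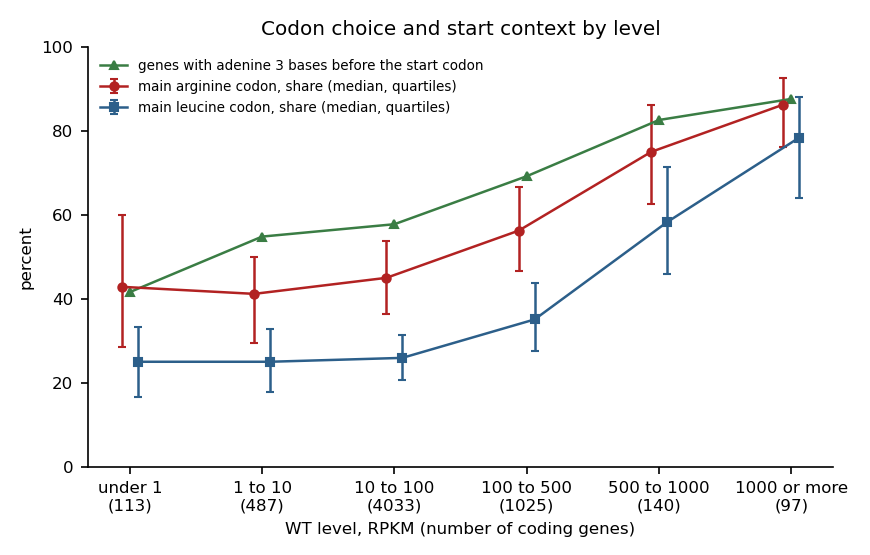
Share in percent of the arginine codon AGA and the leucine codon TTG (median and quartiles over genes) and of genes with an A 3 bases before the start codon, for coding genes grouped by WT level in RPKM. All 3 lines are highest at the right, where they reach 86.3%, 78.4% and 87.6% among the 97 genes of at least 1000 RPKM. Codon shares leave out genes with fewer than 5 codons for the amino acid.

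In paralogue pairs, 1 gene often held most of the message. Of 137 pairs examined, 66 (48.2%) differed at least 2-fold in RPKM, 19 of them at least 10-fold. The 59 ribosomal protein pairs were more even, with 24 at 2-fold or more and a median ratio of 1.65, while 42 of the 78 other pairs reached 2-fold and their median ratio was 2.11. The pairs outside ribosomal proteins were chosen by hand with earlier results known, so the counts describe these pairs only. Ratios have exact binomial (Clopper-Pearson) 95% intervals from the reads, and for 126 of the 130 pairs with an interval it lay above 1. With the higher gene always set over the lower and many reads in most genes, this was nearly fixed in advance. The 126 include 19 of the 20 pairs called near-identical (described below) with an interval, in which a shared read may count at more than 1 place. The intervals cover counting error only, so this count does not show how many pairs differ in message.

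Outside ribosomal proteins, pairs of translation, the plasma membrane and glycolysis gave the 5 widest ratios. YEF3 exceeded HEF3 by 423-fold (interval 392 to 457), from 280870 and 664 reads. PMA1 exceeded PMA2 by 278-fold, at 4681 against 16.8 RPKM. CDC19 stood 219-fold over PYK2, at 6203 against 28.3 RPKM, PDC1 stood 212-fold over PDC5, at 4020 against 19.0, and GPM1 stood 133-fold over GPM3, at 4375 against 32.9. In each of these enzymes the minor gene was still read, with 664 to 1327 reads. TDH3 exceeded TDH2 8.13-fold and ENO2 exceeded ENO1 2.52-fold, 2 pairs in which the minor gene itself was high at 1509 and 1996 RPKM. Under 80% of the windows of TDH3, TDH2, ENO2 and ENO1 are unique. ADH1 exceeded ADH2, the enzyme that takes ethanol up again and is repressed by glucose, 32.0-fold, at 3479 against 109 RPKM. HXK2 exceeded HXK1 3.43-fold. HYP2, the aerobic initiation factor 5A, exceeded ANB1 14.5-fold, and PET9, the main ADP/ATP carrier, exceeded AAC3 17.3-fold. HSC82, the constitutive Hsp90, exceeded the inducible HSP82 4.16-fold, and SSE1 exceeded SSE2 16.5-fold.

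At the other end, ISW1 and ISW2, chromatin remodelers, had 46.4 and 46.3 RPKM, and HTB1 and HTB2 for histone H2B had 606 and 598 RPKM. The intervals of both ratios include 1. SSB2 and SSB1 (1963 and 1954 RPKM), TEF2 and TEF1, and EFT2 and EFT1 also had ratios of at most 1.02. Of the 50-base windows of these genes, 56.8%, 7.53% and 8.06% are unique in the genome. Few reads of the TEF and EFT genes can thus be told apart. More can be for SSB2 and SSB1, whose ratio had an interval of 0.996 to 1.01. In 21 pairs, called near-identical here, a gene has under 80% unique windows. Of these, 4 differed 2-fold and the median ratio was 1.24, against 62 and 2.10 in the other 116 pairs. The windows may be shared outside the pair. The coding sequences of RSC30 and RSC3 are only 62.7% identical, with 60.8% and 100% unique windows. How the authors assigned shared reads is not given in the sources used here, and its part in these ratios was not tested. Some copies with 0% unique windows had equal counts, such as YRF1-1, YRF1-5 and YRF1-8 with 1925 reads each. Others differed, such as CUP1-1 with 10151 reads and CUP1-2 with 8584. A shared read may thus count at more than 1 copy, in the levels and class shares as well as in the ratios. Histone pairs that can be told apart were less even than H2B: HHT2 exceeded HHT1 3.0-fold and HTA1 exceeded HTA2 2.23-fold.

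Ribosomal protein pairs had the A gene higher in 36 cases and the B gene in 23. RPL15A exceeded RPL15B 25.2-fold (interval 23.6 to 26.9), at 1419 against 56.3 RPKM. Their coding sequences are 93.2% identical, and 88.2% of the windows of each are unique. RPS9B exceeded RPS9A 18.8-fold, RPL22A exceeded RPL22B 10.9-fold and RPS14A exceeded RPS14B 9.60-fold. The most even were RPS6B over RPS6A (1.03-fold), RPS18A over RPS18B (1.07), RPL1B over RPL1A (1.08), RPL40A over RPL40B (1.10) and RPL35A over RPL35B (1.13). The pairs of RPS6, RPL1 and RPL35 are near-identical, with 53.0% to 54.8%, 19.0% and 64.8% to 68.6% unique windows. RPS6B and RPS6A differ in intron length, and by exon length the order of that pair turned to a ratio of 0.995, the only ribosomal protein pair to turn.

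Ribosomes hold most of these proteins in equal numbers, so the sum of a pair can be set beside the genes without a paralogue. The 19 single-copy genes had a median of 1455 RPKM, each of the 118 paired genes had a median of 608 RPKM, and the 59 sums had a median of 1174 RPKM. The order of sums and single-copy genes depended on the length used: by exon length the medians were 2094 RPKM for the sums, 1703 RPKM for single-copy genes and 1105 RPKM for each paired gene. Annotated introns were present in 84 of the 118 paired and 5 of the 19 single-copy genes. Splicing values, however, were given for 101 ribosomal protein genes. Genes without an annotated intron or recovered reads, such as RPL32, RPL29 and RPS26A, kept their RPKM in the medians by exon length. The sums themselves ran from 418 RPKM (RPS29B with RPS29A) to 3409 RPKM (RPS1B with RPS1A).

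**Figure D4:**
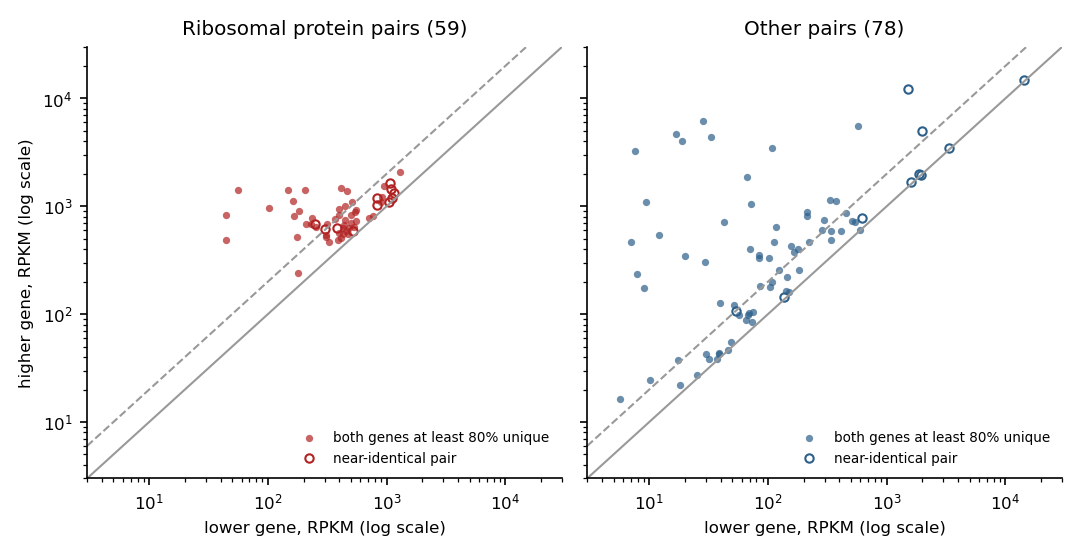
Level of the higher gene against that of the lower gene of each paralogue pair in the WT library, in RPKM on log axes, for 59 ribosomal protein pairs and 78 other pairs. The solid line marks equal levels, the dashed line a 2-fold ratio and open circles the near-identical pairs; 24 and 42 pairs lie on or above the dashed line.

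Near 0, under 1 RPKM, stood 185 genes, which is 2.78% of all. Named coding genes were few among them, 48 of 5253 (0.914%), while 65 of 642 coding genes with only a systematic name (10.1%) and 67 of 673 names outside the annotation (9.96%) were near 0. Named coding genes are longer, with a median of 1272 bases against 509.5 for those with only a systematic name. In a short gene 0 reads leave a wide interval, which reached 2.61 RPKM for YJR151W-A (51 bases) and 1.11 RPKM for TYC1 (120 bases). The named coding genes at 0 reads were TYC1, ASP3-2 and ASP3-4, asparaginases of the cell wall, LDS1, a gene of late sporulation, and LEU2. The 4 copies of ASP3 had 0 or 1 read each and share their sequence. ECM11, a meiotic gene, OSW1, of the spore wall, and URA3 had 2 reads each. Other named coding genes under 0.5 RPKM, each with a unique sequence, included PFS1, PRM6, HXT14, MAM1, RGI2, DAL80 and OYE3. MAM1, which joins sister kinetochores in meiosis, had 0.357 RPKM from 9 reads, and DAL80, a repressor of nitrogen genes, had 0.401 RPKM from 9 reads.

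Meiotic genes were low but seldom absent. The 34 early meiotic genes had a median of 6.31 RPKM, and 4 were near 0: ECM11, SAE3, MEI5 and HOP2. None reached the median of all genes, and the highest were MER1, a splicing factor of meiosis, at 29.8 RPKM (671 reads) and REC107 at 26.4. DMC1, the meiotic recombinase, had 6.51 RPKM and SPO11, which makes the double-strand breaks, had 3.38. The 34 middle and late sporulation genes had a median of 6.61 RPKM with 3 near 0, CDA1, CDA2 and OSW1, and NDT80, which activates genes of mid-sporulation, had 14.9. Of the 24 nitrogen genes the only near-0 members were the 4 ASP3 copies, and PUT4 and UGA4, a proline and a GABA permease, had 1.23 and 1.60 RPKM.

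The seripauperin genes, a family near chromosome ends, had a median of 2.14 RPKM over 24 genes and 7 were near 0. Over the 3 genes with at least 80% unique windows the median was 10.1 RPKM. PAU6 at 89.6 and PAU18 at 84.7 RPKM stood apart from the rest, which were at or below 17.2. However, 0% of the windows of either gene are unique. The COS genes, also near chromosome ends, had a median of 61.8 RPKM over 11 genes, led by COS6 at 229 RPKM, with COS12 alone near 0 at 0.757 RPKM. Coding genes within 5 kb of a chromosome end had a median of 5.87 RPKM (56 genes, 11 near 0), those at 5 to 10 kb had 8.98 RPKM (66 genes, 8 near 0), those at 10 to 20 kb had 14.8 RPKM (122 genes, 4 near 0), and those at 100 kb or more had 43.1 RPKM (4422 genes, 72 near 0). Within 20 kb a single gene, DLD3, was high. Sequence repeats move with this position: 82.1% of the genes within 5 kb have under 80% unique windows, against 1.74% of those at 100 kb or more. Over genes with at least 80% unique windows the medians were 13.8, 10.9, 22.2 and 42.9 RPKM in the same 4 zones, with 10, 23, 81 and 4345 genes.

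Splicing efficiency was given for 297 introns or isoforms with a measured host; HOP2 had none. The median was 0.675, the quartiles were 0.426 and 0.804, and 220 values (74.1%) were below 0.8 and 88 (29.6%) below 0.5. The formula is not given in the sources used here, so that a value is read only against the other values. Introns of ribosomal protein genes had a median of 0.857 (104 values), and those of other genes a median of 0.604 (193 values). Below 0.8 were 41 (39.4%) of the ribosomal protein values and 179 (92.7%) of the others; below 0.5 were 7 and 81.

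Efficiency was higher in hosts of higher level. With the values split into 4 equal bins of host RPKM, low to high, the median efficiency was 0.342, 0.644, 0.767 and 0.858. Over all 297 values the Spearman correlation with host RPKM was 0.659, and Pearson's with log2(RPKM + 1) was 0.652. The points share a library, and a low host gives fewer reads to measure its splicing from, so an efficiency of a low host is the less precise. Among other hosts alone the Spearman correlation was 0.550, with median efficiencies of 0.346 at 10 to 30 RPKM, 0.628 at 30 to 100, 0.723 at 100 to 300 and 0.775 at 300 RPKM or more. Among ribosomal protein hosts it was 0.179. In the 11 hosts under 10 RPKM, which are genes of meiosis and sporulation in the main, 8 values were 0; DMC1 with 0.312, REC102 with 0.332 and GMC2 with 0.348 were above it.

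**Figure D5:**
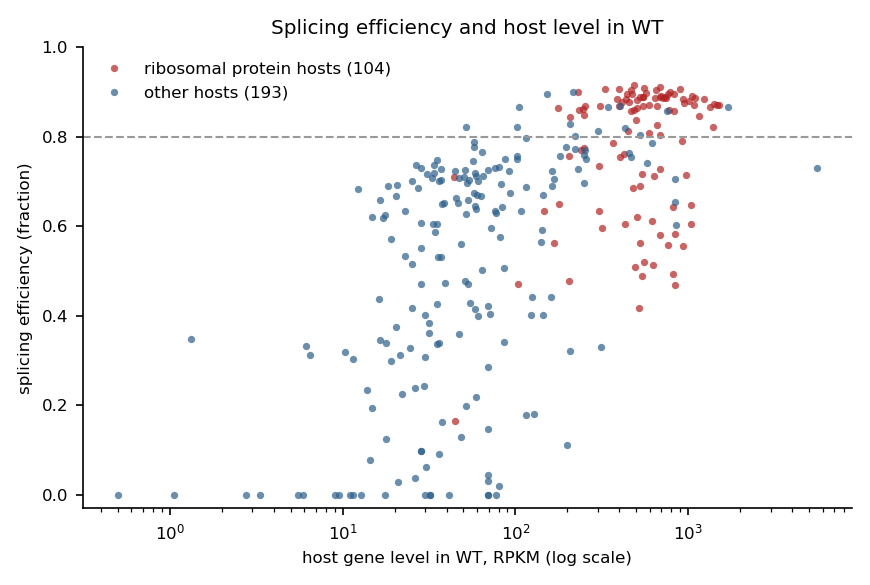
Splicing efficiency (fraction) against the WT level of the host gene in RPKM on a log axis, for 104 introns or isoforms of ribosomal protein genes and 193 of other genes. The dashed line marks 0.8; ribosomal protein introns gather near 0.857 at the right and the other values fall away below 100 RPKM.

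Level did not fix efficiency for single introns. Among hosts of at least 10 RPKM the lowest values outside meiotic genes included LSB3, an actin-patch protein, at 0 with 76.7 RPKM, GCR1, the activator of glycolytic genes, at 0 with 41.3 RPKM, and DCN1 at 0 with 17.6 RPKM. NOG2, a GTPase of ribosome assembly whose intron carries SNR191, had 0.113 with 199 RPKM, and MPT5, an RNA-binding protein, had 0.128 with 48.5 RPKM. SNR191 had 610 RPKM from 4633 reads, and the part of its reads in both values of NOG2 was not tested. HNT1 had 0.331 with 311 RPKM, the only value under 0.5 among other hosts at 300 RPKM or more. The meiotic genes SPO22, REC114 and SPO1 were at 0 and REC107 was at 0.0368, with 11.0 to 26.4 RPKM. At the top were RPS19B (0.914), RPL33A (0.912), RPS0A (0.907), RPL16B (0.907), RPL23A (0.906) and RPS16A (0.905), all of ribosomal proteins, with 328 to 893 RPKM. BMH2, a 14-3-3 protein, had 0.90 with 215 RPKM, GLC7, a phosphatase subunit, had 0.895 with 152 RPKM, and ACT1, actin, had 0.867 with 1707 RPKM. SNR17A, the noncoding U3 RNA, had 0.729 with 5567 RPKM.

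Introns that could be matched to the annotation, 227 with a host of at least 10 RPKM, were compared by their splice signals. The 5' site GTATGT was present in 175 with a median efficiency of 0.702, against 0.601 in the 52 with other letters there. The branch sequence TACTAAC was present in 191 with a median of 0.702, against 0.474 in the 36 without it. Of all 261 annotated introns of coding genes with a single intron, 72.0% begin with GTATGT and 83.1% hold TACTAAC, searched on the transcribed strand. Host level moved with these signals, with medians of 225 RPKM for the 148 introns with both and 57.8 RPKM for the other 79. Among hosts other than ribosomal proteins, the median efficiency was 0.667 in the 87 introns with both signals (host median 63.1 RPKM) and 0.471 in the 54 without (34.2 RPKM). Longer introns also had higher values, with a Spearman correlation of 0.516 over all 227, 0.344 among other hosts and 0.164 among ribosomal protein hosts. What each of level, length and signals contributes was not tested.

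Introns of low and of high efficiency are printed to show that the low ones include both consensus and other signals. Only introns of at most 300 bases were taken, so the 2 of high efficiency are not the highest of the table, and their hosts include a ribosomal protein and another gene. Capitals mark the first 6 bases, the branch sequence TACTAAC where it occurs and the last 3 bases (R64, read 5′ to 3′ on the transcribed strand).
LSB3 (chrVI:203293-203386, minus, efficiency 0): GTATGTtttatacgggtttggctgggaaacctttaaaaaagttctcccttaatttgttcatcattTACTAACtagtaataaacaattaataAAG
DCN1 (chrXII:398533-398626, plus, efficiency 0): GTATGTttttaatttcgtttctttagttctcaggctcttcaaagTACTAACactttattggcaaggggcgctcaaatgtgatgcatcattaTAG
SPO22 (chrIX:225810-225899, minus, efficiency 0): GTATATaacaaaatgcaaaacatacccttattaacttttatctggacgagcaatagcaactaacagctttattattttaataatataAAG
SPO1 (chrXIV:609791-609874, plus, efficiency 0): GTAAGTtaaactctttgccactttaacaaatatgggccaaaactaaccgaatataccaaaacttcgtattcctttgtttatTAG
REC107 (chrX:469184-469263, minus, efficiency 0.0368): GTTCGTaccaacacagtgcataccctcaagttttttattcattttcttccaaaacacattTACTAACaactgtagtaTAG
RPS4B (chrVIII:505248-505516, minus, efficiency 0.870): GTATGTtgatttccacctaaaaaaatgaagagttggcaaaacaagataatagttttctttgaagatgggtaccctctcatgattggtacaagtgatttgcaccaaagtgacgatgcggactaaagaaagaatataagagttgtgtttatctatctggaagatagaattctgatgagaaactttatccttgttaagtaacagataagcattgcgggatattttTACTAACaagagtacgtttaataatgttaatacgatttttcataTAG
TUB3 (chrXIII:23361-23658, minus, efficiency 0.866): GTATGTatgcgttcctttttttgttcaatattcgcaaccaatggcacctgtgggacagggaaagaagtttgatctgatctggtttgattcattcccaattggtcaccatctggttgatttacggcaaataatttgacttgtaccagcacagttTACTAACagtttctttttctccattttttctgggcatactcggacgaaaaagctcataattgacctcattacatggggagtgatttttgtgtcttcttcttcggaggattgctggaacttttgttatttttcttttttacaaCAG
LSB3 and DCN1 carry both GTATGT and TACTAAC and were at 0, whereas SPO22, SPO1 and REC107 differ from GTATGT at the 5' site. LSB3 and SPO22 end in AAG, and the other printed introns end in TAG or CAG. The introns of RPS4B and TUB3, at 269 and 298 bases, are longer than the 5 low ones, at 80 to 94 bases; this choice of introns does not stand for all.

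Paralogues of ribosomal proteins were compared in splicing as well. In 45 pairs both genes had a value, and the gene of higher level was the better spliced in 25 of them; the median size of the difference was 0.0351. RPL22A had 0.860 and RPL22B 0.165, the widest gap in favour of the higher gene, with 485 and 44.6 RPKM. RPL16B had 0.907 and RPL16A 0.488. The widest gap the other way was RPS21B at 0.418 and RPS21A at 0.863, with 519 and 176 RPKM. Of the 17 pairs that differed at least 2-fold in level, the higher gene was the better spliced in 9.

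Several values belonged to 1 gene in 13 cases. The 6 isoforms of MTR2, an export factor of messenger RNA, ran from 0 to 0.286. The values of NHP6B, a chromatin protein, were 0.0202 and 0.731, and those of EFM5, a methyltransferase of elongation factor 1A, were 0.180 and 0.687. In YOS1, SUS1 and VMA9 the values of a gene differed by 0.0167 to 0.0325, and the introns of RPL7A had 0.581 and 0.804.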

How the data were processed

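The authors deposited RPKM values for each gene and splicing efficiencies as a fraction for each intron or isoform; only the WT columns were used, and the 6 columns of the other 3 strains were not. The submitters' processing notes name the build sacCer3 and, without saying what each did, STAR 2.4.0 and CASAVA. The sources used here do not name the counter, the annotation or the handling of shared reads. Of the lines of the RPKM table, 3 named with a single letter (0.221% of summed RPKM) and 4 empty ones were left out. Genes were matched to the R64 annotation, the assembly behind sacCer3, by systematic name, symbol or synonym. RPKM times gene length gave whole reads, within 0.05 reads, for 99.6% of values above 0; this recovery was tested on simulated data. Uniqueness is the share of 50-base windows found once in R64, on either strand. Levels called high (at least 500 RPKM), near 0 (under 1), 2-fold pairs and efficiencies below 0.8 are descriptions. The members, lists and pairs were chosen with earlier results of these data known. Genes named are the 20 highest with a symbol, members at the top and bottom of each class or first in role, the most unequal and most even pairs, genes at or near 0, markers, and the lowest and highest introns; others are said to have been chosen later or illustrate a class. Some genes that this rule names are not reported here. Python 3.11.15, pandas 2.3.3 and scipy 1.17.1 were used.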

Additional observations from a re-analysis of the deposited data

How the results depend on the processing

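No paired analysis was possible because each strain has 1 library. The number of high genes was 498 at a level of at least 300 RPKM and 127 at a level of at least 1000 RPKM, and that of near-0 genes 107 under 0.5 RPKM and, among annotated genes alone, 51 with fewer than 3 reads. At a 3-fold ratio 41 pairs had a dominant gene. Introns below an efficiency of 0.5, a level chosen after seeing the data, numbered 88. The correlation of efficiency with host level was 0.550 among other hosts and 0.179 among ribosomal protein hosts, a set also chosen after seeing the data. The highest 100 genes held 33.8% of recovered reads and 32.2% of summed RPKM without noncoding RNAs. Exon length in place of the whole gene was used where an intron was annotated and reads were recovered. It moved the medians of all, large-subunit and small-subunit ribosomal proteins to 1142, 1107 and 1155 RPKM. Dropping shared sequences moved the median of the seripauperin genes to 10.1 RPKM over 3 genes. The other 101 class medians under these 2 settings stayed within the interval of their median, which is wide for some: that of glycolysis and fermentation was 412 RPKM without shared sequences, against 1153 RPKM with them. Of the 64 class shares by reads or without noncoding RNAs, 28 moved. Levels rest on 1 library, on unknown handling of shared reads, and on counts without strand.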
